A study of Mus musculus with 9 samples.

Results

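The genes described here encode collagen chains. They were taken as every mouse gene symbol made of Col, a number, the letter a and a number, with a mean of at least 0.5 CPM (counts per 1000000 after scaling) over 9 libraries. Of 24063 gene symbols, 44 had that form and 34 of the 44 reached the minimum. The 34 were 10 of 11 fibrillar genes, 3 of 6 basement membrane genes, 6 of 9 FACIT genes (fibril-associated collagens with interrupted triple helices) and 15 of 18 others. Col20a1 lay just inside the minimum with a mean of 0.564 CPM and Col6a4 just outside it with 0.337 CPM. The other 9 symbols under the minimum were Col2a1, Col4a3, Col4a4, Col4a6, Col6a5, Col6a6, Col9a1, Col9a2 and Col9a3, with at most 14 counts in any library. Of the 34, Col20a1, Col22a1 and Col23a1 averaged under 0.5 CPM in the 1C-MIM group and reached the minimum through the other groups.

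RNA was sequenced from C2C12 cells, a wild-type (WT) mouse myoblast line, after differentiation into myofibres in DMEM with 2% FBS, at Day 3. In the 1C-MIM group the medium also held 6 metabolites of the 1C (one-carbon) network. In the scramble group it held 6 metabolites outside that network, and the control group had normal medium. Each group had 3 libraries, all of the same line. The labels leave unsaid whether a group's libraries are separate cultures, and p-values here reflect the spread among libraries only. The comparison with control asks what the 1C-MIM supplement does to the fibres' RNA, and the comparison with scramble asks the same against another mix of metabolites.

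Collagens are secreted proteins of the extracellular matrix in which 3 chains wind into a triple helix. Fibrillar collagens form the tensile fibrils of connective tissue, type IV collagen forms the sheet of basement membranes that surrounds each muscle fibre, FACITs bind to the surface of fibrils, and type VI collagen forms beaded filaments next to the basement membrane of muscle. The chains are hydroxylated and folded in the endoplasmic reticulum, trimmed of their propeptides outside the cell and crosslinked by lysyl oxidases.

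Before the values, the sequences just upstream of 4 genes are given, from a pair with higher and a pair with lower RNA in 1C-MIM fibres. They are the 250 bases before the annotated start of each gene in RefSeq on GRCm38.p6, written 5′ to 3′ on the gene's strand. These are Col3a1 at chr1:45311288-45311537 (plus strand), Col6a2 at chr10:76623631-76623880 (minus strand), Col8a1 at chr16:57754738-57754987 (minus strand) and Col8a2 at chr4:126286544-126286793 (plus strand). Capitals mark 3 motifs that were searched on both strands. A common promoter motif is CCAAT. The core of a TATA box is TATAAA. The E-box, which muscle regulatory factors bind, is CANNTG and reads the same on either strand; no matches in these windows overlap each other.
Col3a1: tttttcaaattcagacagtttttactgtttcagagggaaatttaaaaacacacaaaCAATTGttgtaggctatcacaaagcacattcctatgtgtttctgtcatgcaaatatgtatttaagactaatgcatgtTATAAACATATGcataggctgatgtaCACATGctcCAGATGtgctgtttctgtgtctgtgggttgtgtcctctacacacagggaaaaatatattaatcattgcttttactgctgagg
Col6a2: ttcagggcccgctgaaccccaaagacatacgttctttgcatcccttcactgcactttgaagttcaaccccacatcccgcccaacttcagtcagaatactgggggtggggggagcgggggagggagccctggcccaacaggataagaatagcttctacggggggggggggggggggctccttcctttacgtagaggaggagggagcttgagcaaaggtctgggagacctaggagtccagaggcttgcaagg
Col8a1: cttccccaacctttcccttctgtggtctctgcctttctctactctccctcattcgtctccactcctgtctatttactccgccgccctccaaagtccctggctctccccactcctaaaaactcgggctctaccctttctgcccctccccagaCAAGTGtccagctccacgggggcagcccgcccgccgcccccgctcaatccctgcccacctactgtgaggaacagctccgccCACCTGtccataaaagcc
Col8a2: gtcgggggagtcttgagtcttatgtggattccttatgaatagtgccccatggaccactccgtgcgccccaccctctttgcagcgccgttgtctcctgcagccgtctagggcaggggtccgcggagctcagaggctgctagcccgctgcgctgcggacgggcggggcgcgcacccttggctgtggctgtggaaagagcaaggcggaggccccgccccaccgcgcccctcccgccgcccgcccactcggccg
The Col3a1 window held TATAAA, beginning 117 bases before the start and directly followed by CATATG, and 4 matches to CANNTG in all. The Col8a1 window held CANNTG beginning 99 and 18 bases before the start, and the Col6a2 and Col8a2 windows held none of the 3 motifs. In the set of promoter windows used here, 28 of the 34 genes had a window. CCAAT stood in 11 of the 28, against 34.5% of all 27025 windows of that length. TATAAA stood in 5 of the 28, against 13.0% of all windows, and CANNTG in 15 of the 28, against 66.1% of all windows. A match is a run of letters and no evidence that a factor binds there.

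The libraries held 29.0 to 33.2 M counts (M, 1000000) with 1 transcript kept per gene, and 14006 genes had enough counts to test. Control replicate 1 stood apart from the other control libraries: its counts differed from theirs with a chi-square per degree of freedom of 43.4 and 48.1, against 7.70 between control replicates 2 and 3. Replicate 1 was also the one that differed most in the other groups, by 9.37 and 13.5 in 1C-MIM (4.24 between replicates 2 and 3) and by 15.4 and 15.8 in scramble (3.30 between replicates 2 and 3). The 12 muscle fibre markers were all present, and their summed level was 10498 to 12469 CPM in 1C-MIM fibres, 8735 to 11007 CPM in scramble fibres and 7807 to 12462 CPM in control fibres, highest in replicate 1 of each group. All 12 were tested, and Myog, Myod1 and Ckm rose in both comparisons. Mylpf fell in both and Tnnc1 fell against control, and the other markers were not called. Of all tested genes, 22.9% rose in each comparison, 24.3% fell against control and 23.2% fell against scramble. Of 7 fibroblast markers, 6 were tested, 4 rose and 2 fell in 1C-MIM fibres against control, where 22.9% of all tested genes rose and 24.3% fell. Pdgfra, Dpt, Pi16 and Clec3b rose, and Cd248 and Mfap5 fell. The same genes were called in the same directions against scramble, where 22.9% of all tested genes rose and 23.2% fell. Pdgfra averaged 129 CPM in 1C-MIM, 77.8 CPM in scramble and 71.9 CPM in control. Cd248 averaged 20.7 CPM in 1C-MIM, 49.4 CPM in scramble and 44.4 CPM in control. The summed level of the 7 fibroblast markers was 183 to 198 CPM in 1C-MIM, 172 to 184 CPM in scramble and 159 to 164 CPM in control, with Thy1 under 0.1 CPM. Of 32 markers of 6 other cell types, 16 averaged under 0.1 CPM, among them Acan, Matn1 and Hapln1 of chondrocytes, Ibsp of osteoblasts, Tnmd and Mkx of tendon, Cdh5 and Kdr of endothelium, Ptprc and Lyz2 of macrophages, and Adipoq and Plin1 of adipocytes. Another 5 averaged 10 CPM or more: Sox9 of the chondrocyte list, Runx2 and Dmp1 of the osteoblast list, and Scx and Fmod of tendon. Sox9 averaged 62.4 CPM in 1C-MIM, 60.5 CPM in scramble and 61.5 CPM in control, and Runx2 63.9 CPM in 1C-MIM, 65.5 CPM in scramble and 65.4 CPM in control. Of the 12 tested, 1 rose and 3 fell in each comparison. The riser was Tek of the endothelium list, at 0.928 CPM in 1C-MIM, 0.342 CPM in scramble and 0.299 CPM in control. Sp7 and Scx fell in both comparisons, Bglap against control and Fmod against scramble, with Sp7 of the osteoblast list at 0.0459 CPM in 1C-MIM, 0.637 CPM in scramble and 0.512 CPM in control. The tendon list, present through Scx and Fmod alone, summed to 80.2 to 82.1 CPM in 1C-MIM, 101 to 110.3 CPM in scramble and 104 to 112 CPM in control. The part of these markers in the collagen values was not tested. Since this is bulk RNA, fewer cells of a type and less RNA per cell cannot be told apart.

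Collagen RNA was a larger part of the whole in 1C-MIM fibres. The 34 genes took 3.03% ± 0.00603 of all counts in 1C-MIM, 1.95% ± 0.0739 in scramble and 1.78% ± 0.110 in control (SD, n = 3 each). Their summed level was 30948, 30776 and 30854 CPM in the 1C-MIM libraries, 19274, 18634 and 20178 CPM in the scramble libraries, and 18376, 16456 and 17906 CPM in the control libraries. All 3 1C-MIM libraries lay above all 6 others. Col3a1, the chain of type III collagen, made up 49.9% of the collagen counts in 1C-MIM, 35.7% in scramble and 35.2% in control. Without Col3a1 the sum was still 15469.8 ± 258 CPM in 1C-MIM, 12439.6 ± 469 CPM in scramble and 11387 ± 582 CPM in control (SD, n = 3 each).

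**Figure D1:**
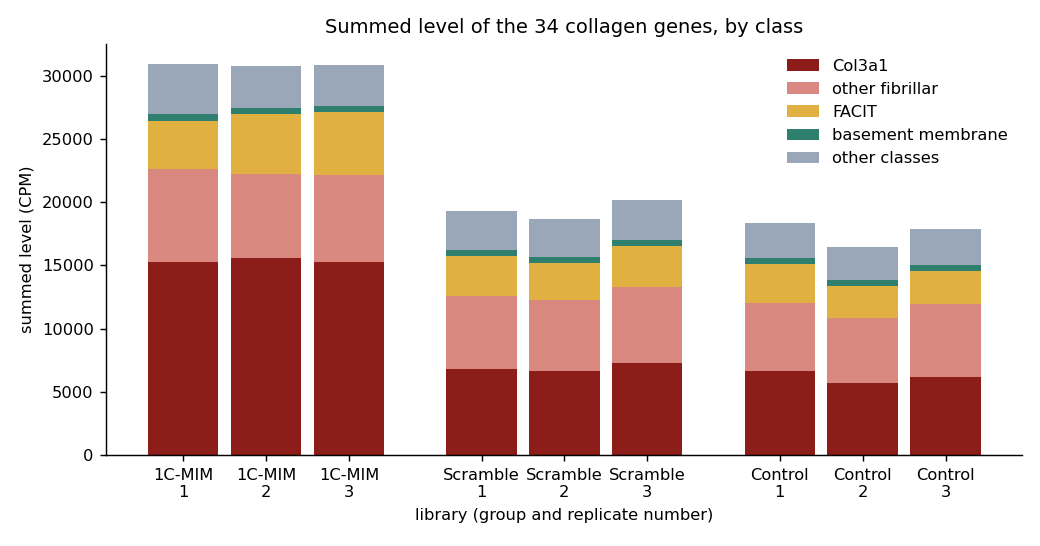
Summed CPM of the 34 collagen genes in each of the 9 libraries, stacked by class, with Col3a1 split from the other fibrillar genes. The 1C-MIM libraries reach 30776 to 30948 CPM and the other 6 libraries 16456 to 20178 CPM, with Col3a1 at the base of each bar.

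Summed by class, most of this was fibrillar. The fibrillar sum was 22326 ± 259 CPM in 1C-MIM, 12722 ± 493 CPM in scramble and 11595 ± 651 CPM in control. The FACIT sum was 4511 ± 610.2 CPM in 1C-MIM, 3088 ± 198 CPM in scramble and 2753 ± 317 CPM in control, nearly all of it Col12a1. The basement membrane sum was 496 ± 3.32 CPM in 1C-MIM, 484 ± 9.63 CPM in scramble and 449.5 ± 8.92 CPM in control. The sum of the other 15 genes was 3526 ± 419 CPM in 1C-MIM, 3068 ± 95.9 CPM in scramble and 2782 ± 134 CPM in control (SD, n = 3 each).

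Gene by gene, 10 collagen genes rose and 8 fell in 1C-MIM against control, and 16 were not called (edgeR's quasi-likelihood test, Benjamini-Hochberg adjusted p below 0.05 over 14006 genes). Over the 14006 genes, 47.3% passed, 22.9% as higher and 24.3% as lower, so 18 of 34, or 52.9%, is near that background. Of the 31 genes that reached 0.5 CPM in every group, 10 rose and 6 fell, since the lower calls of Col20a1 and Col23a1 are from genes that reached the minimum through the other groups. The median log2 fold change was 0.02 over the 34 genes and -0.01 over all tested genes. Against scramble, 10 collagen genes rose and 6 fell, 47.1% of the 34, against 46% of all tested genes (22.9% higher and 23.2% lower). The median log2 fold change against scramble was -0.06 over the 34 genes and -0.0004 over all tested genes. Without scramble replicate 1 the median of the collagen genes over scramble was 0.06. Without 1C-MIM replicate 1 their median over control was -0.09, so neither sign held throughout. The libraries of the compared groups did not overlap for 18 of the 34 genes against control, where 55.5% of all tested genes did not overlap. Against scramble it was 18 of the 34 genes, where it was 59.5% of all tested genes.

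By class, 6 of 10 fibrillar genes rose against control and 0 fell, and their median was 0.27 on the log2 scale. Of all tested genes, 22.9% rose and 24.3% fell against control, the background for each class. Of 3 basement membrane genes, 1 rose and 1 fell. Of 6 FACIT genes, 1 rose and 3 fell, and without Col20a1 and Col22a1, which reached the minimum through the other groups, 1 rose and 2 fell of 4. Of 15 other genes, 2 rose and 4 fell, and without Col23a1 2 rose and 3 fell of 14. Against scramble the counts were 5 higher and 0 lower of 10 fibrillar genes, 1 and 1 of 3 basement membrane genes, 1 and 2 of 6 FACIT genes, and 3 and 3 of 15 others. There 22.9% of all tested genes rose and 23.2% fell. Both comparisons share the 1C-MIM libraries, so each gene's values are given side by side below. Among 19 genes averaging 10 CPM or more, 8 rose and 6 fell against control, and of the 15 genes under 10 CPM, 4 were called, Col20a1 and Col23a1 among them. The share called among all genes of like abundance was not computed.

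**Figure D2:**
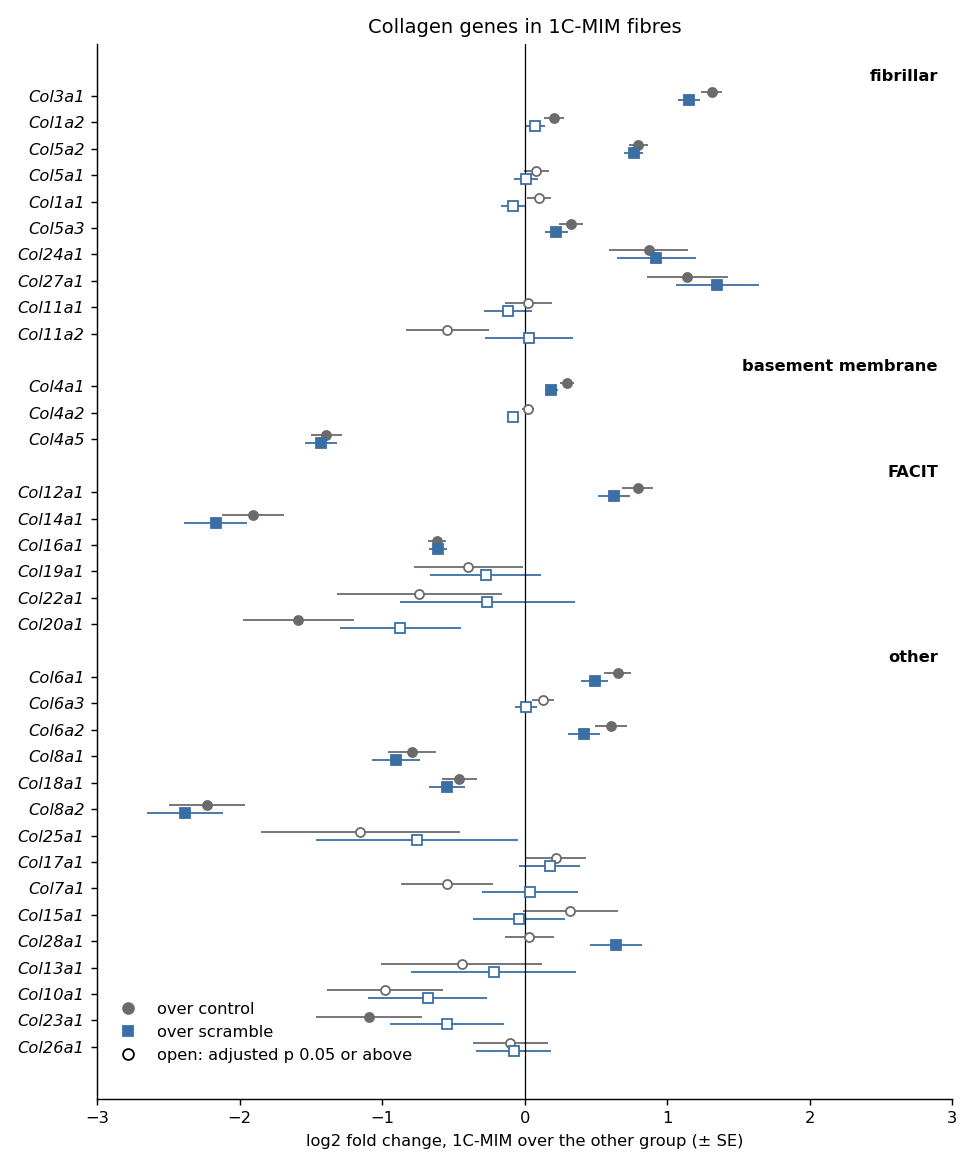
Log2 fold change of each of the 34 collagen genes in 1C-MIM over control (circles) and over scramble (squares), by class, with its SE and filled markers at adjusted p below 0.05. Col3a1 stands furthest right among the abundant fibrillar genes, at 1.31 over control, and Col8a2 furthest left, at -2.23.

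Col3a1 was the most abundant collagen RNA and the member with the smallest p-value against control. Type III collagen is a homotrimer of the Col3a1 chain and is laid down with type I collagen in the connective tissue of muscle. Its level was 15267, 15593 and 15308 CPM in 1C-MIM, 6828, 6667 and 7272 CPM in scramble, and 6629.8, 5741 and 6208 CPM in control. Every 1C-MIM library was above every other library. It was 2.49-fold higher than in control, a log2 fold change of 1.31 ± 0.07 (SE, edgeR adjusted p = 7.66e-07). Against scramble it was 2.22-fold higher, a log2 fold change of 1.15 ± 0.07 (edgeR adjusted p = 1.94e-06).

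Col5a2 lies next to Col3a1 on chromosome 1 in RefSeq and encodes a chain of type V collagen, which nucleates fibrils of type I. It had 2502, 2428 and 2517 CPM in 1C-MIM, 1418, 1416 and 1548 CPM in scramble, and 1493, 1336 and 1456 CPM in control. The 1C-MIM libraries did not overlap the others, with log2 fold changes of 0.80 ± 0.07 over control (edgeR adjusted p = 6.29e-06) and 0.77 ± 0.07 over scramble (edgeR adjusted p = 9.06e-06). Col5a1, its partner in the type V trimer, had 1013, 839 and 826 CPM in 1C-MIM, 884, 856 and 924 CPM in scramble, and 875, 773 and 880.3 CPM in control. Those ranges overlapped, and the log2 fold change of Col5a1 was 0.08 ± 0.09 over control and 0.01 ± 0.09 over scramble (edgeR adjusted p = 0.452 and 0.950). Col5a3, a chain of a rarer type V trimer, had 131, 110.0 and 108 CPM in 1C-MIM, 105, 98.5 and 96.2 CPM in scramble, and 99.3, 84.7 and 94.6 CPM in control. Its log2 fold change was 0.32 ± 0.08 over control (edgeR adjusted p = 0.00702) and 0.22 ± 0.08 over scramble (edgeR adjusted p = 0.0439). The call of Col5a3 against scramble was lost without any of 4 libraries: 1C-MIM replicate 1, scramble replicate 2, scramble replicate 3 or control replicate 3, with edgeR adjusted p between 0.0557 and 0.171.

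The chains of type I collagen, the main collagen of fibrils, were not called, except Col1a2 against control. Col1a1 had 911, 756 and 837 CPM in 1C-MIM, 896, 883 and 869.8 CPM in scramble, and 727, 737 and 876 CPM in control. The groups overlapped, and its log2 fold change was 0.10 ± 0.09 over control and -0.08 ± 0.09 over scramble (edgeR adjusted p = 0.371 and 0.463). Col1a2 had 2759, 2503 and 2483 CPM in 1C-MIM, 2444, 2367 and 2539 CPM in scramble, and 2166, 2159 and 2394 CPM in control. The 1C-MIM libraries lay above the control libraries but among the scramble ones. Its log2 fold change over control was 0.21 ± 0.07 (edgeR adjusted p = 0.0312), and that over scramble was 0.08 ± 0.07 (edgeR adjusted p = 0.400). The call of Col1a2 against control was lost without 1C-MIM replicate 1, 1C-MIM replicate 2 or control replicate 2, with log2 fold changes of 0.15 to 0.23 and edgeR adjusted p of 0.0527 to 0.111. It was also lost with library size in place of TMM scaling, where its log2 fold change was 0.16 (edgeR adjusted p = 0.0807).

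**Figure D3:**
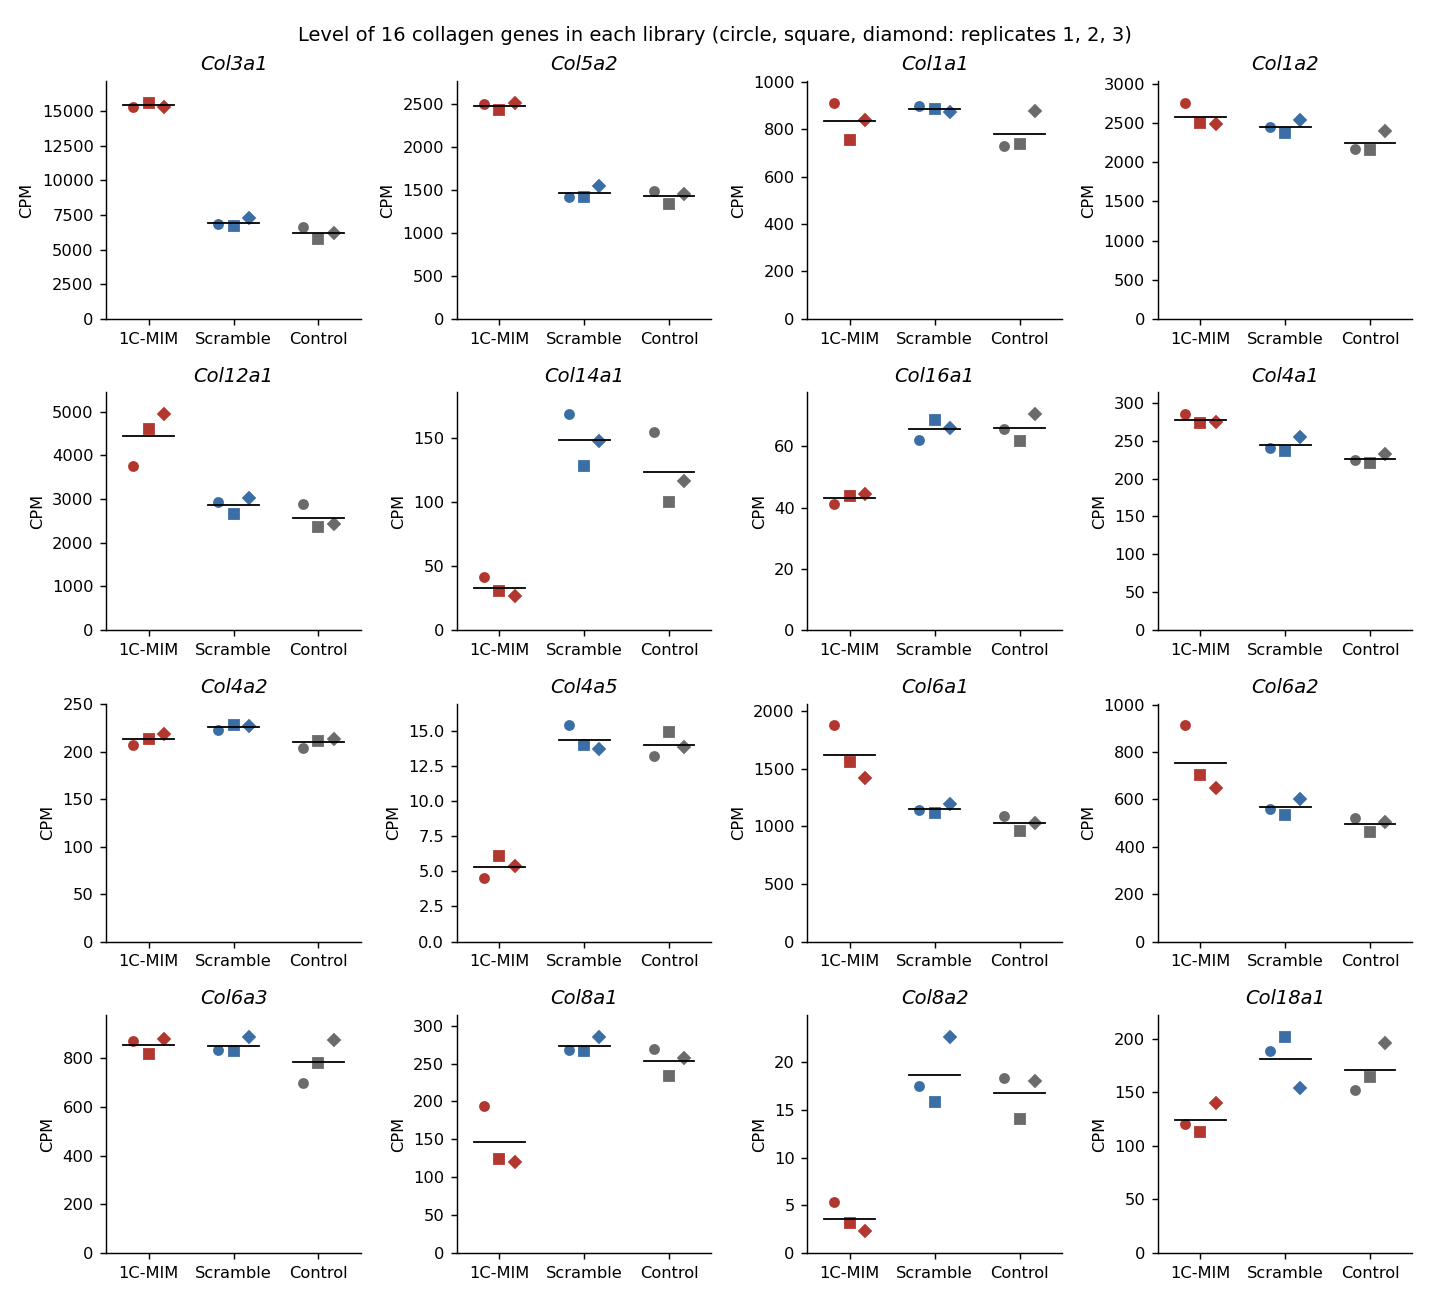
CPM of 16 collagen genes in each library, 1 panel a gene, with a horizontal line at each group mean and y axes from 0. Col3a1, Col5a2, Col12a1, Col6a1 and Col6a2 are higher in all 3 1C-MIM libraries than in the other 6, Col14a1, Col16a1, Col4a5, Col8a1, Col8a2 and Col18a1 are lower, and Col1a1 and Col6a3 overlap.

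Col24a1 and Col27a1, fibrillar chains of low abundance, were also higher in 1C-MIM fibres. Col27a1, known from cartilage, had 8.77, 9.94 and 12.5 CPM in 1C-MIM, 4.07, 3.72 and 4.45 CPM in scramble, and 7.33, 2.91 and 3.96 CPM in control. Its log2 fold change was 1.14 ± 0.28 over control (edgeR adjusted p = 0.00905) and 1.35 ± 0.29 over scramble (edgeR adjusted p = 0.00437). Col24a1 had 12.6, 11.8 and 10.7 CPM in 1C-MIM, 6.42, 6.45 and 5.63 CPM in scramble, and 10.2, 4.33 and 4.73 CPM in control. For both genes control replicate 1 lay close to the 1C-MIM range and the other control libraries far below it. The log2 fold change of Col24a1 was 0.87 ± 0.28 over control (edgeR adjusted p = 0.0288) and 0.92 ± 0.28 over scramble (edgeR adjusted p = 0.0238). Without control replicate 1 it was 1.37 over control (edgeR adjusted p = 7.98e-07), and that of Col27a1 was 1.60 (edgeR adjusted p = 7.30e-06). Leaving out any 1 of the 3 1C-MIM libraries, control replicate 2 or control replicate 3 ended the call of Col24a1 against control, with edgeR adjusted p of 0.0518 to 0.0826. Leaving out 1C-MIM replicate 1, 1C-MIM replicate 2 or any 1 of the scramble libraries ended it against scramble, with edgeR adjusted p of 0.0583 to 0.0763. Col11a1 and Col11a2, chains of type XI collagen, were not called in either comparison. Their group means were 6.08 and 1.02 CPM in 1C-MIM, 6.60 and 0.995 CPM in scramble, and 5.97 and 1.49 CPM in control.

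Of the basement membrane genes, Col4a1 and Col4a2 encode the common type IV trimer and share a divergent promoter on chromosome 8. Col4a1 had 285, 273 and 275 CPM in 1C-MIM, 241, 237 and 255 CPM in scramble, and 224, 221 and 232 CPM in control. The 1C-MIM libraries were above all others, with log2 fold changes of 0.30 ± 0.05 over control (edgeR adjusted p = 0.000443) and 0.19 ± 0.05 over scramble (edgeR adjusted p = 0.00793). Col4a2 had 207, 213 and 219 CPM in 1C-MIM, 223, 228 and 227 CPM in scramble, and 204, 211 and 213 CPM in control. Its 1C-MIM libraries overlapped control and lay below scramble, with log2 fold changes of 0.02 ± 0.04 over control and -0.08 ± 0.04 over scramble (edgeR adjusted p = 0.685 and 0.135). With library size in place of TMM scaling, the log2 fold change of Col4a2 over scramble was -0.12 and was called (edgeR adjusted p = 0.0413). The exons of Col4a1 and Col4a2 overlap by 22 bases on opposite strands, under 1% of either.

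Col4a5, a type IV chain of specialised basement membranes that lies on chromosome X, fell. It had 4.54, 6.11 and 5.35 CPM in 1C-MIM, 15.4, 14.0 and 13.7 CPM in scramble, and 13.2, 14.96 and 13.8 CPM in control. The highest 1C-MIM library was below the lowest of the others. The log2 fold change was -1.39 ± 0.11 over control (edgeR adjusted p = 4.74e-06) and -1.43 ± 0.11 over scramble (edgeR adjusted p = 4.45e-06). Of the other type IV genes, Col4a3 and Col4a4 had at most 6 counts in any library. Col4a6, next to Col4a5 on chromosome X in RefSeq, had at most 14.

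Among the FACITs the abundant Col12a1 rose while Col14a1 and Col16a1 fell. Col12a1 encodes type XII collagen, which coats type I fibrils in tendon and muscle. It had 3749, 4606 and 4944 CPM in 1C-MIM, 2922, 2666 and 3027 CPM in scramble, and 2890.2, 2361 and 2430.0 CPM in control. All 1C-MIM libraries were above the others, and replicate 1 was the lowest among them. The log2 fold change was 0.79 ± 0.11 over control (edgeR adjusted p = 0.000201) and 0.63 ± 0.11 over scramble (edgeR adjusted p = 0.000964).

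Col14a1 encodes type XIV collagen, a fibril-bound chain close in structure to type XII. It had 41.8, 30.6 and 26.8 CPM in 1C-MIM, 169, 128 and 148 CPM in scramble, and 155, 100.3 and 116 CPM in control. No 1C-MIM library reached the lowest of the others. Its level in 1C-MIM was 0.267 times that in control, a log2 fold change of -1.91 ± 0.22 (edgeR adjusted p = 0.000273). Against scramble the log2 fold change was -2.17 ± 0.22 (edgeR adjusted p = 0.000155). Col16a1, type XVI collagen, had 41.1, 43.8 and 44.4 CPM in 1C-MIM, 62.1, 68.7 and 66.2 CPM in scramble, and 65.8, 61.8 and 70.6 CPM in control. The groups did not overlap, and its log2 fold change was -0.62 ± 0.06 over control (edgeR adjusted p = 2.35e-05) and -0.61 ± 0.06 over scramble (edgeR adjusted p = 2.98e-05).

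The other FACITs were near the minimum. Col20a1 had 0.247, 0.414 and 0.202 CPM in 1C-MIM, 0.501, 0.410 and 0.679 CPM in scramble, and 1.26, 0.650 and 0.714 CPM in control. Its 1C-MIM libraries lay below control and overlapped scramble. The log2 fold change was -1.59 ± 0.39 over control and -0.87 ± 0.43 over scramble. Its lower call against control is only a description, since Col20a1 reached the minimum through the scramble and control groups. Col22a1, known from the junction of muscle and tendon, and Col19a1, known from embryonic muscle, were not called in either comparison. Col22a1 averaged 0.448 CPM in 1C-MIM, 0.533 CPM in scramble and 0.756 CPM in control, and Col19a1 averaged 0.654 CPM in 1C-MIM, 0.789 CPM in scramble and 0.864 CPM in control.

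Type VI collagen is built from Col6a1, Col6a2 and a further chain, most often Col6a3, and defects in these genes cause muscle disease in humans. Col6a1 had 1876, 1554 and 1419 CPM in 1C-MIM, 1139, 1113 and 1197 CPM in scramble, and 1088, 962 and 1033 CPM in control. Its log2 fold change was 0.65 ± 0.10 over control (edgeR adjusted p = 0.000247) and 0.49 ± 0.09 over scramble (edgeR adjusted p = 0.00161). Col6a2, its neighbour on chromosome 10, had 913, 704 and 647 CPM in 1C-MIM, 561, 536 and 602 CPM in scramble, and 520.0, 462 and 503 CPM in control. For Col6a1 and Col6a2 alike, all 1C-MIM libraries were above the others and replicate 1 was the highest. The log2 fold change of Col6a2 was 0.61 ± 0.11 over control (edgeR adjusted p = 0.00132) and 0.41 ± 0.11 over scramble (edgeR adjusted p = 0.0119). Without 1C-MIM replicate 1, that of Col6a2 over scramble was 0.25 (edgeR adjusted p = 0.0231). Col6a3 had 870.0, 819 and 878 CPM in 1C-MIM, 832, 828 and 888 CPM in scramble, and 699, 779 and 873 CPM in control. Its groups overlapped, with log2 fold changes of 0.13 ± 0.08 over control and 0.01 ± 0.08 over scramble (edgeR adjusted p = 0.207 and 0.927). Without control replicate 3, Col6a3 was called higher than control, with a log2 fold change of 0.21 (edgeR adjusted p = 0.0376).

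Type VIII collagen is a short-chain collagen that forms hexagonal networks, known from the cornea and the vessel wall, and both of its chains fell. Col8a1 had 195, 124 and 121 CPM in 1C-MIM, 268, 266 and 286 CPM in scramble, and 269.9, 233 and 257 CPM in control. Col8a2 had 5.32, 3.14 and 2.32 CPM in 1C-MIM, 17.5, 15.9 and 22.7 CPM in scramble, and 18.4, 14.1 and 18.1 CPM in control. For both chains every 1C-MIM library was below every other, and replicate 1 was the highest of the 1C-MIM libraries. The log2 fold change of Col8a1 was -0.79 ± 0.17 over control (edgeR adjusted p = 0.00446) and -0.90 ± 0.17 over scramble (edgeR adjusted p = 0.00237). That of Col8a2 was -2.23 ± 0.27 over control (edgeR adjusted p = 0.000172) and -2.38 ± 0.27 over scramble (edgeR adjusted p = 0.000128).

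Col18a1, a chain of basement membrane zones and the source of endostatin, had 120.3, 113 and 140.2 CPM in 1C-MIM, 189, 202 and 154 CPM in scramble, and 152, 165 and 196 CPM in control. The groups did not overlap, but the gap was small. Its log2 fold change was -0.46 ± 0.13 over control (edgeR adjusted p = 0.0140) and -0.54 ± 0.13 over scramble (edgeR adjusted p = 0.00622). Without 1C-MIM replicate 2, Col18a1 was no longer called against control, at -0.39 (edgeR adjusted p = 0.0511). Without all 3 libraries numbered 1, it was called in neither comparison, at -0.51 over control and -0.49 over scramble (edgeR adjusted p = 0.149 and 0.163). Col28a1, known from peripheral nerve, had 3.49, 3.07 and 3.20 CPM in 1C-MIM, 2.00, 1.98 and 2.27 CPM in scramble, and 2.36, 3.56 and 3.60 CPM in control. It was above all scramble libraries and within the control range, with log2 fold changes of 0.64 ± 0.18 over scramble (edgeR adjusted p = 0.0136) and 0.03 ± 0.17 over control (edgeR adjusted p = 0.888).

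Col23a1, a transmembrane collagen, had 0.493, 0.345 and 0.471 CPM in 1C-MIM, 0.752, 0.785 and 0.373 CPM in scramble, and 1.196, 1.05 and 0.565 CPM in control. Its log2 fold change was -1.09 ± 0.37 over control and -0.54 ± 0.40 over scramble. Its lower call against control is likewise a description of a gene that reached the minimum through the other groups, and it was lost without any 1 of the 3 1C-MIM libraries, control replicate 1 or control replicate 2. The other genes of this class, Col7a1 of anchoring fibrils, Col10a1 of hypertrophic cartilage, Col15a1 of basement membrane zones, the transmembrane Col13a1, Col17a1 and Col25a1, and Col26a1, were not called in either comparison. For Col10a1 the log2 fold change over control was -0.98 (edgeR adjusted p = 0.0679). It was called lower than control when control replicate 3 was left out, at -1.30 (edgeR adjusted p = 0.0137), and with the replicate number as a block, at -0.92 (edgeR adjusted p = 0.0333).

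Several low genes were high in replicate 1 of control and scramble. Col25a1, needed in mice for motor nerves to grow into muscle, had 7.36, 6.18 and 5.38 CPM in 1C-MIM, 17.1, 7.20 and 7.53 CPM in scramble, and 29.4, 6.29 and 6.57 CPM in control. Col13a1, a transmembrane collagen of the neuromuscular junction, had 2.47, 2.11 and 1.72 CPM in 1C-MIM, 3.76, 1.84 and 1.66 CPM in scramble, and 5.63, 1.42 and 1.52 CPM in control. In both, control replicate 1 was the highest of all 9 libraries and scramble replicate 1 came next. In all, 8 of the 34 genes were at least 2 times higher in control replicate 1 than in the mean of control replicates 2 and 3. They were Col25a1, Col13a1, Col22a1, Col10a1, Col19a1, Col24a1, Col7a1 and Col27a1, with ratios of 4.57, 3.83, 3.32, 2.58, 2.29, 2.25, 2.24 and 2.14 in that order. The same held for 3 genes in scramble replicate 1 and 0 genes in 1C-MIM replicate 1. The share of all tested genes for which this held was not computed, so these counts have no background to be read against. The summed level of the muscle fibre markers was also highest in replicate 1 of each group, and its part in these values was not tested. Without control replicate 1, the log2 fold change over control was -0.03 for Col25a1 and 0.50 for Col13a1 (edgeR adjusted p = 0.959 and 0.243), against -1.15 ± 0.70 and -0.44 ± 0.57 with it (edgeR adjusted p = 0.217 and 0.552). Without all 3 libraries numbered 1, Col25a1 was called lower than scramble, at -0.35 (edgeR adjusted p = 0.0235), and Col17a1 higher, at 0.42 (edgeR adjusted p = 0.0307), while the calls of Col18a1 in both comparisons and of Col23a1 against control were lost.

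**Figure D4:**
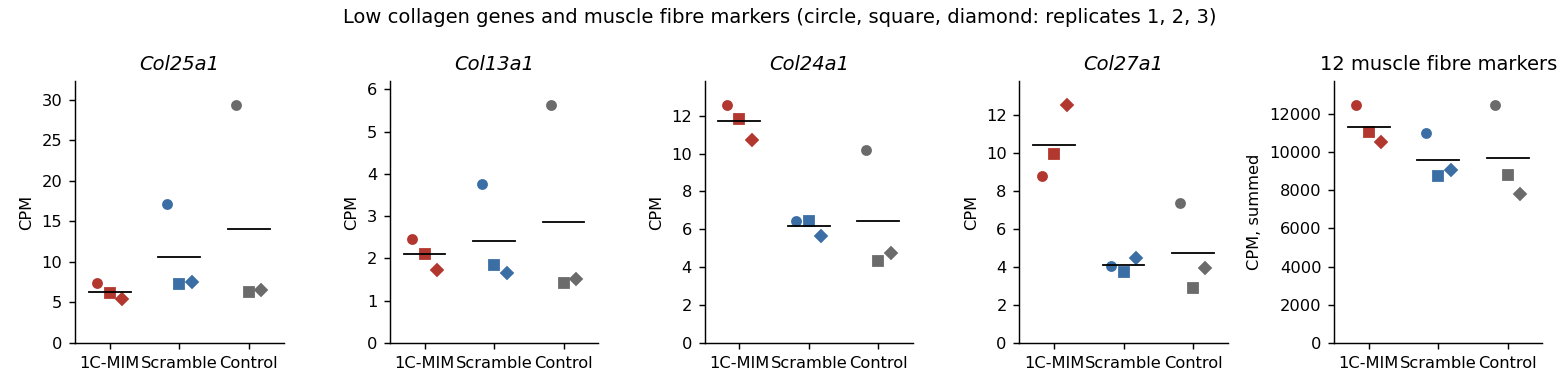
CPM of Col25a1, Col13a1, Col24a1 and Col27a1, and the summed CPM of 12 muscle fibre markers, in each library, with a line at each group mean. Control replicate 1 (grey circle) is at 29.4 CPM for Col25a1, against 6.29 and 6.57 CPM in the other control libraries, and the marker sum is highest in replicate 1 of each group.

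Per kilobase of transcript, the scale on which genes can be set beside each other, Col3a1 led the collagens in every group, at 2766 ± 31.9 CPM per kb in 1C-MIM, 1244 ± 56.3 in scramble and 1113 ± 79.9 in control (SD, n = 3 each). Next in 1C-MIM fibres came Col1a2 at 502 ± 29.9 CPM per kb, Col6a1 at 406 ± 59.0, Col12a1 at 378 ± 52.6 and Col5a2 at 375 ± 7.19, of which the last 3 did not differ beyond their spread. In control fibres the order after Col3a1 was Col1a2 at 435 ± 26.0 CPM per kb, Col6a1 at 258 ± 15.9, Col12a1 at 218 ± 24.5 and Col5a2 at 216 ± 12.4. Col1a1 stood at 178 ± 16.6 CPM per kb in 1C-MIM, 188 ± 2.80 in scramble and 166 ± 17.7 in control.

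Ratios of counts per base between chains were compared for 8 pairs. Type I collagen commonly has 2 Col1a1 chains to 1 Col1a2 chain, and these RNAs stood at 0.354 ± 0.0205 in 1C-MIM, 0.395 ± 0.0177 in scramble and 0.381 ± 0.0174 in control (SD, n = 3 each). The 1C-MIM libraries overlapped control and lay below scramble. Col3a1 over Col1a2 was 5.11, 5.76 and 5.70 in 1C-MIM, 2.58, 2.60 and 2.65 in scramble, and 2.83, 2.46 and 2.40 in control. Col5a2 over Col5a1 was 3.14, 3.67 and 3.87 in 1C-MIM, 2.04, 2.10 and 2.13 in scramble, and 2.17, 2.19 and 2.10 in control. Neither ratio overlapped between 1C-MIM and the other groups. Col4a1 over Col4a2 was 1.27 ± 0.0634 in 1C-MIM, 1.05 ± 0.0401 in scramble and 1.05 ± 0.0278 in control, also without overlap. Col6a1 over Col6a3 was 5.15 ± 0.737 in 1C-MIM, 3.69 ± 0.0377 in scramble and 3.61 ± 0.554 in control, again without overlap. Col6a2 over Col6a3 was 2.56 ± 0.458 in 1C-MIM, 1.94 ± 0.0488 in scramble and 1.85 ± 0.270 in control, above scramble but overlapping control. Col6a1 over Col6a2, by contrast, was 2.02 ± 0.0793 in 1C-MIM, 1.91 ± 0.0410 in scramble and 1.95 ± 0.0193 in control, and overlapped. Col8a2 over Col8a1 was 0.0283 ± 0.00497 in 1C-MIM, 0.0804 ± 0.0121 in scramble and 0.0782 ± 0.00611 in control, without overlap. With 3 libraries against 3, a 2-sided exact permutation test cannot go below p = 0.1, and each ratio without overlap reached it (adjusted over the 8 ratios, p = 0.160 against control and 0.114 against scramble in exact permutation tests). Among single genes, 55.5% of those tested did not overlap against control and 59.5% against scramble, and no share was computed for other pairs. A ratio of a called chain over one not called largely restates the values of its genes.

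**Figure D5:**
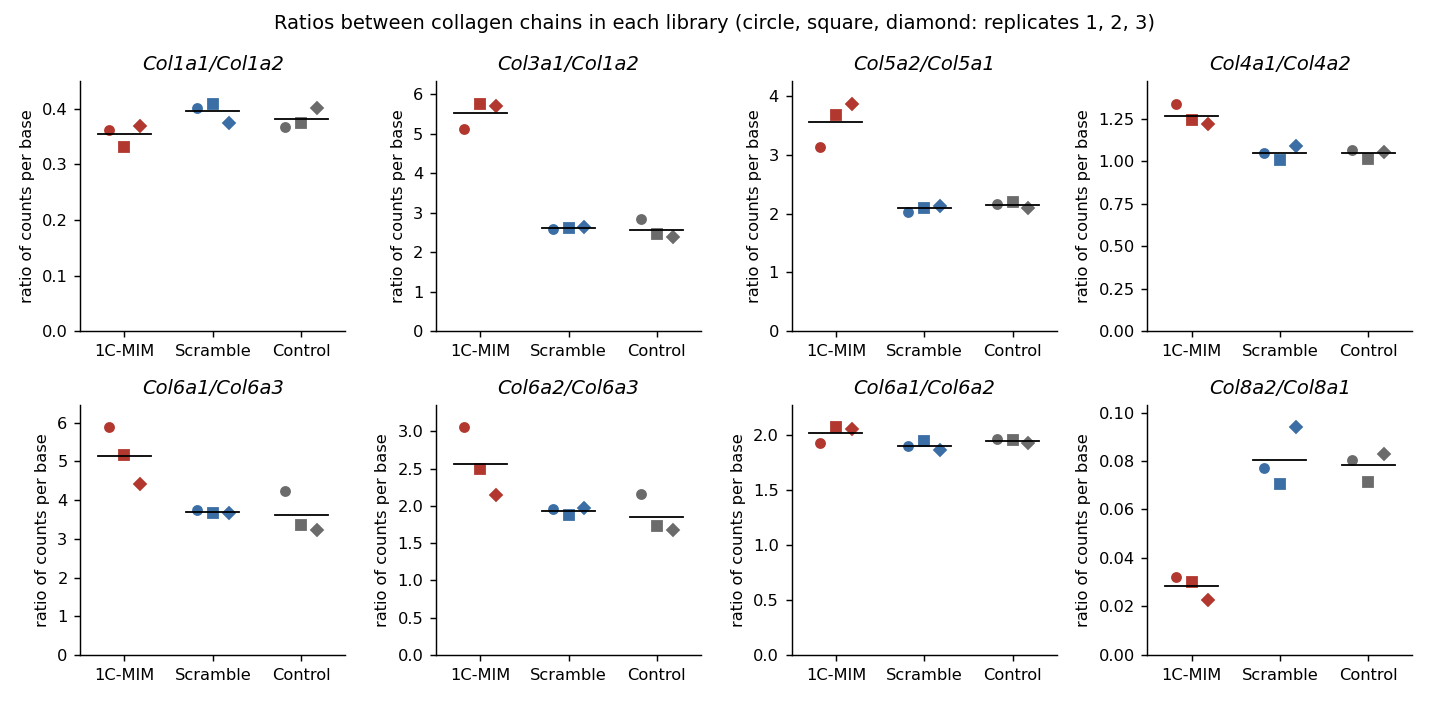
Ratio of counts per base between 8 pairs of collagen chains in each library, with a line at each group mean and y axes from 0. Col3a1/Col1a2, Col5a2/Col5a1, Col4a1/Col4a2 and Col6a1/Col6a3 are higher and Col8a2/Col8a1 lower in all 3 1C-MIM libraries than in the other 6, while Col6a1/Col6a2 overlaps.

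Between scramble and control no collagen gene was called. By edgeR 0 of the 34 collagen genes, and 0% of all tested genes, were called at adjusted p below 0.05. At an unadjusted p below 0.05 it was 3 collagen genes (Col4a1, Col4a2 and Col28a1) and 482 of all tested genes. DESeq2 called 4 genes and limma-voom 0, none of them a collagen. The libraries did not overlap for 6 of the 34 genes, against 9.09% of all tested genes. Col3a1 had the same direction as in 1C-MIM, with a log2 fold change over control of 0.16 ± 0.07 (edgeR unadjusted p = 0.0512). Without the libraries numbered 1, Col3a1 was called, at 0.22 (edgeR adjusted p = 0.0331), as 1 of 96 genes.

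The enzymes that modify collagen chains changed in both directions. Over all tested genes, 22.9% rose and 24.3% fell against control, and 22.9% rose and 23.2% fell against scramble, the background for each list here. Of 13 tested hydroxylases and glycosyltransferases, 3 rose and 6 fell in 1C-MIM against control, and the same numbers did so against scramble, so 69.2% were called in each, against 47.3% and 46% of all tested genes. Glt25d1 (Colgalt1), which adds galactose to hydroxylysine, was higher at a log2 fold change of 0.43 ± 0.05 over control (edgeR adjusted p = 6.29e-05), and Lepre1 (P3h1), a prolyl 3-hydroxylase, at 0.36 ± 0.05 (edgeR adjusted p = 0.000164). The prolyl 3-hydroxylases Leprel1 (P3h2) and Leprel2 (P3h3) were lower instead. They stood at -1.04 ± 0.17 and -0.28 ± 0.07 over control (edgeR adjusted p = 0.000529 and 0.0066). P4ha1, a catalytic subunit of prolyl 4-hydroxylase, had 275, 286 and 262 CPM in 1C-MIM, 372, 375 and 405 CPM in scramble, and 375, 369 and 404 CPM in control. It was lower without overlap, at -0.48 ± 0.06 over control (edgeR adjusted p = 7.73e-05), and so was Plod1, a lysyl hydroxylase, at -0.45 ± 0.06 (edgeR adjusted p = 0.000145). Of 8 tested chaperones and export factors, 6 rose and 1 fell against control, where 47.3% of all tested genes were called, and 5 rose and 1 fell against scramble, where 46% were. Serpinh1, the collagen chaperone HSP47, was higher at 0.53 ± 0.06 over control (edgeR adjusted p = 5.84e-05), and Sparc, which binds collagen, at 0.46 ± 0.06 (edgeR adjusted p = 0.000182).

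All 5 lysyl oxidase genes, which crosslink collagen and elastin, were tested, and 0 rose. Against control 3 fell, where 24.3% of all tested genes did, and against scramble all 5 fell, where 23.2% did. Lox had 569, 533 and 524 CPM in 1C-MIM, 898, 973 and 1084 CPM in scramble, and 867, 897 and 993 CPM in control. Its highest 1C-MIM library was below the lowest of the others, with a log2 fold change of -0.76 ± 0.08 over control (edgeR adjusted p = 2.79e-05) and -0.86 ± 0.08 over scramble (edgeR adjusted p = 1.47e-05). Loxl4 was lower at -1.22 ± 0.15 over control (edgeR adjusted p = 8.36e-05) and Loxl3 at -0.56 ± 0.07 (edgeR adjusted p = 8.89e-05).

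Of 7 tested genes of propeptide processing, 3 rose and 2 fell in both comparisons, in which 47.3% and 46% of all tested genes were called. Adamts3, a procollagen N-proteinase, was higher at 1.24 ± 0.16 over control (edgeR adjusted p = 0.000137), Adamts2, of the same kind, at 0.44 ± 0.08 (edgeR adjusted p = 0.00102) and Bmp1, the C-proteinase, at 0.27 ± 0.07 (edgeR adjusted p = 0.0104). Pcolce2, an enhancer of the C-proteinase, was lower at -1.26 ± 0.12 (edgeR adjusted p = 2.70e-05). Adamts14, an N-proteinase like Adamts2 and Adamts3, was also lower. Its log2 fold change was -0.45 ± 0.14 over control and -0.39 ± 0.14 over scramble (edgeR adjusted p = 0.0255 and 0.0487). Of 7 tested receptors and uptake genes, 3 rose and 3 fell in both comparisons, against the same 47.3% and 46%. The discoidin receptor Ddr2 was lower at -0.39 ± 0.06 over control (edgeR adjusted p = 0.000229) and the integrin chain Itgb1 at -0.31 ± 0.05 (edgeR adjusted p = 0.000453). Itga10, an integrin chain that binds collagen, was higher at 1.18 ± 0.21 (edgeR adjusted p = 0.00124) and Mrc2, which takes up collagen for breakdown, at 0.34 ± 0.06 (edgeR adjusted p = 0.000827). Itga11, likewise an integrin chain that binds collagen, was lower at -0.31 ± 0.10 over control (edgeR adjusted p = 0.0246). The discoidin receptor Ddr1 was higher at 0.20 ± 0.07 over control (edgeR adjusted p = 0.0280).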

How the data were processed

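RNA-seq of 9 C2C12 libraries was used. Per the file headers, the deposited tables list 33984 RefSeq transcripts, each with the authors' count, FPKM and TPM; the TPM was not used. The submitters' processing notes name STAR, Salmon 1.5.2, StringTie 2.2.1, featureCounts, Subread 2.0.1, then bedtools 2.30.0, SAMtools 1.15.1, Picard 2.27.4 and Trim Galore 0.6.7, DESeq2 1.28.0, and build GRCm39. Their roles here, and any use of strand, were not given in the sources used here. Libraries were made from 1.3 ug of total RNA with a SMARTer mRNA-Seq kit, per the labels' protocols. Reads in shared exons appear under each transcript, so the transcript with the highest mean count stood for its symbol; totals over all transcripts were 47.7 to 54.9 M and over 1 transcript per symbol 29.0 to 33.2 M (M, 1000000 counts). Transcript lengths were taken from the deposited counts and FPKM values.

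Counts were scaled by TMM and tested with edgeR 4.0.16 (quasi-likelihood, robust, group as the only term, all 9 libraries) in R 4.3.3, over 14006 genes that passed filterByExpr, with Benjamini-Hochberg adjustment and a threshold of 0.05. The filter left out 10057 symbols holding 0.0280% of counts. The code was tested on simulated data. Alternatives used other scalings, filters, DESeq2 1.42.0, limma 3.58.1 (voom), a minimum fold of 1.2, a replicate block and each library left out. Every collagen gene over the minimum could be named. Of each pathway list, up to 4 genes with the smallest p in a comparison could be named. Genes of the same kind as a named one that moved the other way were added. The members and lists were chosen with earlier results of these data known. Older symbols were matched through RefSeq synonyms. Sequences and gene order come from RefSeq on GRCm38.p6 and exon overlaps from GENCODE vM21, not the build of the notes. Values are mean ± SD over 3 libraries unless given as SE.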

Additional observations from a re-analysis of the deposited data

How the results depend on the processing

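Each of 22 alternatives was applied to every collagen gene and comparison where it could be. Of 2208 log2 fold changes under these alternatives, 2147 kept their direction where called and their side of the threshold, 54 lost a call, 7 gained a call and 0 called values changed sign. The 2208 include uncalled genes and scramble against control, so a call could be lost only by the 18 genes called against control and the 16 against scramble. The stricter threshold and the minimum fold left the log2 fold changes as they were, so no sign could change there. Of the 18 genes called against control, 12 stayed called under every alternative that tested them: Col3a1, Col5a2, Col27a1, Col4a5, Col12a1, Col14a1, Col16a1, Col20a1, Col6a1, Col6a2, Col8a1 and Col8a2. Of these, Col20a1 reached the minimum through the scramble and control groups, and the filter at a mean of 1 CPM left it untested. Of the 16 called against scramble, 10 did: Col3a1, Col5a2, Col27a1, Col4a5, Col12a1, Col14a1, Col16a1, Col6a1, Col8a1 and Col8a2. With a minimum fold of 1.2, the genes called higher numbered 6 against control and 5 against scramble, in place of 10 and 10. Those lost were Col1a2, Col4a1, Col5a3 and Col24a1 against control, and Col4a1, Col5a3, Col24a1, Col28a1 and Col6a2 against scramble. At an adjusted p below 0.01, 6 were higher than scramble. Leaving out 1 library at a time gave 8 to 10 higher and 6 to 9 lower against control, and 8 to 10 higher and 6 lower against scramble. In scramble against control the count was 0 throughout, except 1 higher (Col3a1) without the libraries numbered 1.

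The replicate block gave 10 higher and 9 lower against control (Col10a1 is the one added), 10 higher and 6 lower against scramble, and 0 between scramble and control. Same-numbered libraries deviated together with a correlation over 0.1 in 6 of 9 pairs (0.0279 to 0.481). The highest of these was between scramble replicate 1 and control replicate 1. Some differently numbered pairs also passed 0.1, up to 0.242 for scramble replicate 2 with control replicate 3. Of the 9 libraries, 6 correlated best with their own number. The main test took no block, and whether the numbers pair the libraries is not settled. With the block, 7397 of all tested genes were called against control and 7309 against scramble, in place of 6621 and 6449. Genes under 1 CPM, such as Col20a1 and Col23a1, rest on few counts at this depth.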
